A study of Mus musculus with 9 samples.

Results

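The genes described here encode the protein components of the cytosolic ribosome and the factors that start translation, measured in C2C12, a mouse myoblast line in long use that can form muscle fibres in culture. They were chosen by symbol from the array's annotation: probe sets listed with 1 symbol of the form Rpl or Rps followed by a number, or Rplp0 to Rplp2, make up the ribosomal genes, and those beginning Eif1 to Eif6, without the Eif2ak kinases, make up the initiation factors. The rule found 117 genes of the 22264 symbols on the array, 64 ribosomal and 53 initiation factor genes, with 1566 of its 1195555 probe sets. It also took in Eif2c1 to Eif2c4, older symbols of the Argonaute genes Ago1 to Ago4, which are not initiation factors and are described apart. Cells growing in medium with 10% serum were given a control siRNA, an siRNA to Cugbp1 (now Celf1) or an siRNA to Mbnl1, both of which encode RNA-binding proteins that act on splicing and mRNA stability. Total RNA was collected after 48 h and 3 exon arrays were made for each of the 3 groups, 9 in all. All groups are of 1 cell line, all were given an siRNA, and no array combines both targets. Whether replicates were grown apart is not in the labels, so the p-values speak for the spread among these 9 arrays and not for more.

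The ribosome joins amino acids into protein, its small subunit reading the mRNA and its large subunit forming the peptide bond. Initiation begins when eIF2 brings the first tRNA to a small subunit held open by eIF1, eIF1A and eIF3, while eIF4E, eIF4G and eIF4A bind the capped end of the mRNA and unwind it, and eIF5B joins the large subunit. eIF2B reloads eIF2 with GTP and is the step that the stress kinases block, and most ribosomal protein mRNAs of mammals begin with a run of pyrimidines through which mTOR signalling controls their translation.

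The deposited values are probe set intensities normalised by the authors, and all values below are on the log2 scale. Array medians were intensities of 43.82, 43.82 and 43.59 in control cells. They were 42.79, 42.69 and 42.29 after Cugbp1 siRNA and 42.47, 42.91 and 42.55 after Mbnl1 siRNA. Every siRNA array thus lay below every control array, and counts under other scalings are given below. Gene values correlated between arrays of 1 group with Pearson's r from 0.990 to 0.996. Celf1 was at 36.4% of its control level after Cugbp1 siRNA and Mbnl1 at 39.3% after Mbnl1 siRNA, with no overlap of the arrays in either case. Of 9 myoblast markers 8 were measured above the filter, with a mean log2 level over the markers of 8.97 to 9.10 in control cells, 9.16 to 9.23 after Cugbp1 siRNA and 8.95 to 9.16 after Mbnl1 siRNA. Markers of adipocytes (0 of 3), endothelium (0 of 4), blood cells (1 of 4), epithelium (1 of 4) and neural tissue (1 of 3, Olig2) were mostly below it. The mean level of the epithelial markers was 6.56 to 6.83 in control cells, 6.33 to 6.46 after Cugbp1 siRNA and 6.47 to 6.68 after Mbnl1 siRNA. That of the neural markers was 6.25 to 6.49, 5.96 to 6.30 and 6.14 to 6.19, the Mbnl1 siRNA arrays lying below control, and the part of these marker levels in the results was not tested. Cugbp1 siRNA replicate 1 stood apart: 14.2% of all genes lay more than 0.2 from the mean of the group's other arrays, against 4.29% to 9.48% on the other 8 arrays, and 6 ribosomal and 6 initiation factor genes were among them. In bulk RNA, fewer cells and less RNA per cell cannot be told apart.

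Testing required 3 or more probe sets with a mean at or above the 75th percentile of all probe sets, an intensity of 128. It was met by 92 of the 117 genes, 42 ribosomal and 50 initiation factor genes, among 12646 genes in all. The share of members called was below that of all genes in both contrasts with control. After Cugbp1 siRNA 5 ribosomal genes rose and 1 fell, with a median change over the 42 genes of 0.004, and 10 initiation factor genes rose, with a median of 0.05. These are 14.3% and 20% of the tested members, against 38.7% of all genes that limma called at an adjusted p under 0.05 (26% higher, 12.7% lower), whose median was 0.05. After Mbnl1 siRNA 12 ribosomal genes rose, with a median of 0.08, and 12 initiation factor genes rose and 3 fell, with a median of 0.05. These are 28.6% and 30%, against 41.5% of all genes (26.9% higher, 14.6% lower), whose median was 0.04. Between the siRNAs 1 ribosomal gene, lower after Cugbp1 siRNA (2.38%), and 5 initiation factor genes, 4 higher and 1 lower (10%), differed, against 9.34% of all genes (4.27% higher, 5.07% lower). Changes were small throughout: no ribosomal gene and 1 initiation factor gene, Eif5a2, moved more than 1.5-fold in any contrast. Such changes were rare among all 12646 genes too: 108 after Cugbp1 siRNA, 207 after Mbnl1 siRNA and 59 between the siRNAs. The arrays of the compared groups did not overlap for 35.7% of the ribosomal genes and 32% of the initiation factor genes after Cugbp1 siRNA, against 48.8% of all genes. After Mbnl1 siRNA these shares were 42.9% and 60%, against 57.5%, and between the siRNAs 21.4% and 32%, against 29.5%. Both siRNA groups were set against the same 3 control arrays, so the contrasts are not independent of each other.

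The split into higher and lower calls depended on how the arrays were scaled. With each array's gene values centred on the median of the tested genes, which moves the median change of all genes from 0.05 to -0.03 after Cugbp1 siRNA and from 0.04 to -0.03 after Mbnl1 siRNA, ribosomal genes counted 1 higher and 10 lower after Cugbp1 siRNA and 4 higher and 5 lower after Mbnl1 siRNA. Initiation factors counted 3 higher and 7 lower, and 7 higher and 7 lower. Of all 12646 genes, 1679 were then called higher and 2839 lower after Cugbp1 siRNA (35.7%). After Mbnl1 siRNA 2201 were higher and 3200 lower (42.7%). Counts of subgroups given below under this centring are to be read against these numbers. Centring on the kept probe sets gave 3 higher and 5 lower, and 6 higher and 2 lower, for ribosomal genes, and 5 higher and 1 lower, and 8 higher and 3 lower, for initiation factors. With quantile normalisation repeated, ribosomal genes counted 4 higher and 2 lower, and 10 higher, and initiation factors 7 higher and 1 lower, and 9 higher and 3 lower. With arrays centred on the median of all their probe sets, the counts were 8 higher and 1 lower, and 14 higher, for ribosomal genes, and 14 higher, and 18 higher and 2 lower, for initiation factors. The shares of all genes called were 35.3% and 40.7% with centring on the kept probe sets. They were 35% and 40.1% with quantile normalisation repeated, and 44.5% and 44.8% with arrays centred on their median. A small shift of either family as a whole was therefore not resolved. Calls near the threshold were lost in some settings, and the adjusted p of those named below is given as a range over the alternatives, with the arrays whose omission ended the call. Beside all genes, the median of the ribosomal genes lay 0.05 lower after Cugbp1 siRNA and 0.03 higher after Mbnl1 siRNA.

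**Figure D1:**
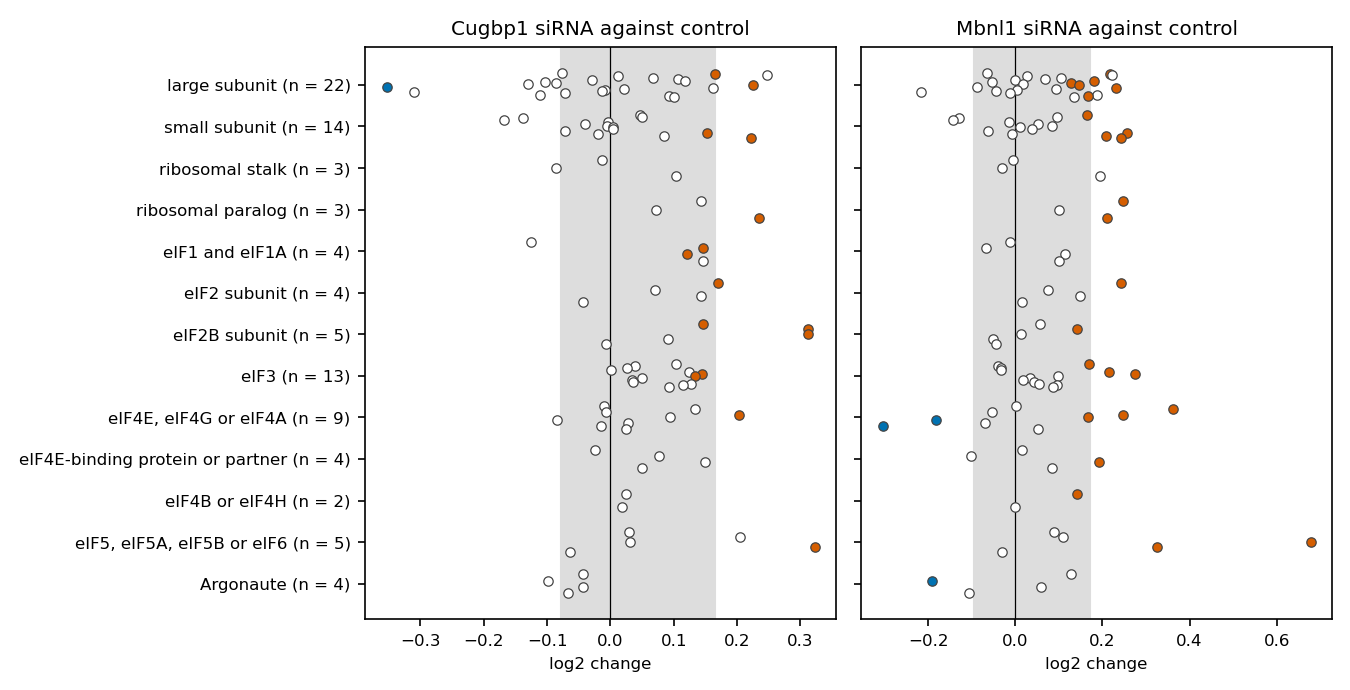
Change of each tested member after Cugbp1 siRNA and after Mbnl1 siRNA, as log2 difference from control on the horizontal axis and role on the vertical axis. Each point is 1 gene, orange where called higher, blue where called lower and white where not called, and the grey band spans the middle 50% of the changes of all 12646 genes. Most members lie inside or near the band, Eif5a2 at 0.68 after Mbnl1 siRNA lies farthest to the right, and the split into higher and lower calls changes with the scaling.

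The mean over the ribosomal genes minus the mean over the initiation factors, a difference taken within each array that no scaling by a constant can move, was 0.81, 0.80 and 0.85 in control cells. It was 0.76, 0.76 and 0.77 after Cugbp1 siRNA and 0.85, 0.81 and 0.82 after Mbnl1 siRNA. The 3 Cugbp1 siRNA arrays lay below the other 6, by a mean of 0.05 from control and 0.06 from Mbnl1 siRNA with a pooled SD of 0.02, and the Mbnl1 siRNA arrays overlapped the control arrays. Without the Argonaute genes the values were 0.72, 0.71 and 0.75 in control cells, 0.66, 0.65 and 0.67 after Cugbp1 siRNA and 0.75, 0.71 and 0.71 after Mbnl1 siRNA. No test was made of this score. With members of at least 1 kept probe set included, the difference from control was -0.082 after Cugbp1 siRNA and -0.044 after Mbnl1 siRNA, so that the place of the Mbnl1 siRNA arrays beside control depended on that choice.

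**Figure D2:**
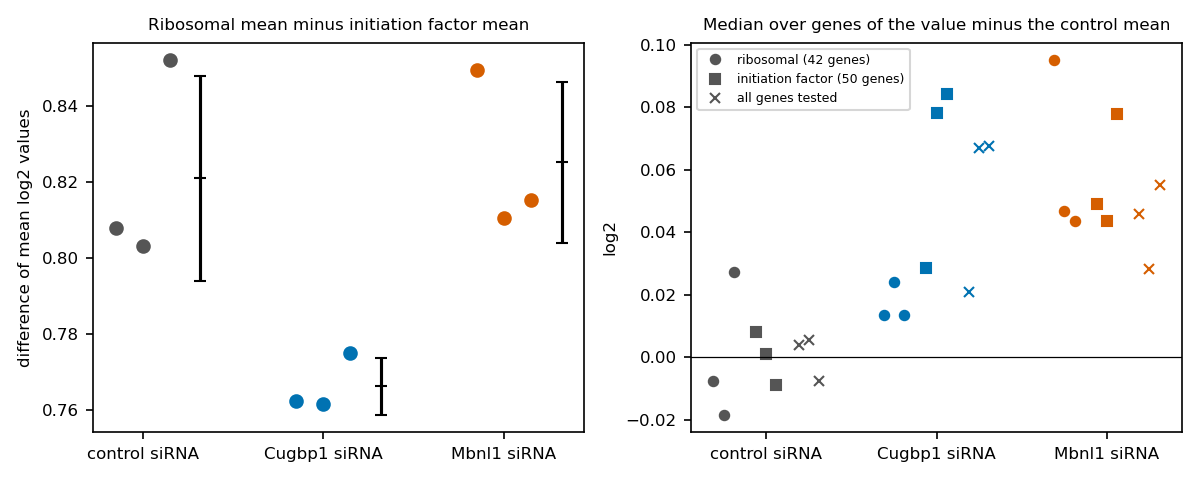
Left, mean of the ribosomal genes minus mean of the initiation factors (log2) on each of the 9 arrays by group, with the group mean and SD. Right, median over genes of each array's value minus the control mean (log2), for ribosomal genes, initiation factors and all tested genes. On the left the 3 Cugbp1 siRNA arrays, at 0.76 to 0.77, lie below the others; on the right the ribosomal median lies apart on some arrays, as on Cugbp1 siRNA replicate 3 (0.013, against 0.084 for initiation factors and 0.068 for all genes), and their place relative to 0 depends on the scaling.

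Promoter sequence is shown for 9 members with called changes, because a pyrimidine run at the start of the mRNA is the feature that sets ribosomal protein mRNAs apart in translation. They were picked by hand, and other called members, such as Rpl30, Rps25, Rps4x and Rpl37, are not shown. Every ribosomal gene shown has a run, against 33.9% of all ribosomal starts, so the 9 do not stand for the called members. The 40 bases are 20 before the annotated start and 20 from it, from RefSeq on GRCm38.p6, and capitals mark the pyrimidine run defined after the sequences, where there is one. RefSeq starts were matched for 51 of the 64 ribosomal genes and 40 of the 53 initiation factor genes. Rps10 is shown although its values were seen before it was picked. The intervals are chr7:3704021-3704060 (+) for Rps9, chr7:45128726-45128765 (-) for Rpl13a, chr17:27635225-27635264 (-) for Rps10, chr7:109519175-109519214 (+) for Rpl27a, chr1:39367831-39367870 (+) for Rpl31, chr7:108934395-108934434 (+) for Eif3f, chr12:85219461-85219500 (+) for Eif2b2, chr1:37997990-37998029 (+) for Eif5b and chr3:28781257-28781296 (+) for Eif5a2.
Rps9: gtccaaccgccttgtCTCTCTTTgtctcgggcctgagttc
Rpl13a: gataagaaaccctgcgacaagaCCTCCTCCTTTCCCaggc
Rps10: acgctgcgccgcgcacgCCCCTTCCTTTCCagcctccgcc
Rpl27a: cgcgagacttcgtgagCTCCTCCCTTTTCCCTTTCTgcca
Rpl31: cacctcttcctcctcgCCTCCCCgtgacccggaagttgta
Eif3f: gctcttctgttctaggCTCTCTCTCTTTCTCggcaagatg
Eif2b2: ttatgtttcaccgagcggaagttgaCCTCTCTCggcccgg
Eif5b: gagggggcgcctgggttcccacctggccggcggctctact
Eif5a2: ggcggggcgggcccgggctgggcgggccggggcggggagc
A C followed by at least 5 bases that are each C or T, on the strand of the gene and beginning within 5 bases of the start, was found at 21 of 62 starts of ribosomal genes (33.9%) and at 7 of 53 starts of initiation factors (13.2%), against 10.2% of all 32851 starts. The letters CCGGAAG, searched on both strands from 250 bases before the start to 50 from it, were found at 33.9% of ribosomal and 35.8% of initiation factor starts, against 8.86% of all. Where CCGGAAG lies on the other strand, the strand of the gene reads CTTCCGG. Its opening CTTCC is too short to be a run by itself, so 1 stretch counts in both searches only where the bases before it lengthen the run. A match is not a bound site, and among the genes shown runs were found in genes that rose (Rps9, Eif3f) as well as in the gene that fell after Cugbp1 siRNA (Rpl31).

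Among the 22 proteins of the large subunit tested, 2 rose and 1 fell after Cugbp1 siRNA and 6 rose after Mbnl1 siRNA, counts that became 1 higher and 6 lower, and 2 lower, with gene values centred on the tested genes. Rpl30, which also binds its own transcript, stood at 11.25, 11.25 and 11.17 in control cells, 11.43, 11.45 and 11.47 after Cugbp1 siRNA and 11.33, 11.41 and 11.37 after Mbnl1 siRNA. It rose by 0.22 (SE 0.04, limma adjusted p = 0.0034) and 0.15 (adjusted p = 0.020), and no array of either siRNA group overlapped control. All 4 of its kept probe sets were higher in both. The call after Mbnl1 siRNA (0.0061 to 0.20 over the alternatives) was lost without control replicate 3 or Mbnl1 siRNA replicate 2 or 3. Rpl13a, a protein of the large subunit also known from inflammatory control of translation, stood at 10.80, 10.71 and 10.91 in control cells, 11.00, 10.96 and 10.94 after Cugbp1 siRNA and 10.99, 11.02 and 11.05 after Mbnl1 siRNA. It rose by 0.16 (adjusted p = 0.034) and 0.22 (adjusted p = 0.0092), and its highest control array lay just under the lowest array of the siRNA groups. The smaller change (0.0061 to 0.27) was lost without Cugbp1 siRNA replicate 2 or any 1 Mbnl1 siRNA array, and the larger (0.0019 to 0.066) when gene values were centred on the tested genes. Of its 17 kept probe sets, 12 were higher after Cugbp1 siRNA and 13 after Mbnl1 siRNA. After Mbnl1 siRNA the bright 4398455, 4977075 and 5140731 (control means 13.09, 12.89 and 12.74) differed by -0.05, -0.03 and -0.11. They departed from the gene value by -0.27, -0.25 and -0.33 (limma adjusted p = 0.048, 0.038 and 0.016 over all probe sets tested for exon usage), and 5573932 by 0.43 the other way. Rpl37 stood at 11.04, 11.11 and 11.07 in control cells, 11.37, 11.15 and 11.18 after Cugbp1 siRNA and 11.37, 11.29 and 11.26 after Mbnl1 siRNA. It rose after Mbnl1 siRNA by 0.23 (adjusted p = 0.013), with all arrays above control, while its 0.16 after Cugbp1 siRNA did not pass (adjusted p = 0.058). The call (0.0038 to 0.093) was lost without Mbnl1 siRNA replicate 1, where the change was 0.19.

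Rpl31 was the 1 ribosomal gene that fell after Cugbp1 siRNA. This protein lies near the exit of the peptide tunnel. Its values were 8.02, 7.90 and 8.24 in control cells, 7.80, 7.68 and 7.62 after Cugbp1 siRNA and 7.88, 8.01 and 8.01 after Mbnl1 siRNA. It fell by 0.35 (SE 0.08, adjusted p = 0.0093) after Cugbp1 siRNA, with every array below every control array, and all 3 of its kept probe sets were lower. The difference after Mbnl1 siRNA was -0.09 (adjusted p = 0.42) and the difference between the siRNAs was -0.27 (adjusted p = 0.078), so a difference in response was not called. Without Cugbp1 siRNA replicate 3 the change from control was -0.29 and no longer passed (adjusted p = 0.057, in a range of 0.0032 to 0.057 over the alternatives).

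Rpl27a was the ribosomal gene that differed between the siRNAs. It stood at 10.13, 10.12 and 10.18 in control cells, 10.03, 10.13 and 10.02 after Cugbp1 siRNA and 10.27, 10.31 and 10.24 after Mbnl1 siRNA. The Cugbp1 siRNA arrays were lower than the Mbnl1 siRNA arrays by 0.21 on average, a difference of -0.21 (95% interval -0.32 to -0.11, adjusted p = 0.016), with no overlap. Against control it rose by 0.13 after Mbnl1 siRNA (adjusted p = 0.045) and its -0.09 after Cugbp1 siRNA did not pass (adjusted p = 0.15). The value rests on 3 probe sets, and the difference between the siRNAs missed the threshold without Mbnl1 siRNA replicate 1 (adjusted p = 0.060) or replicate 2 (adjusted p = 0.070), in a range of 0.0051 to 0.070. The rise after Mbnl1 siRNA (0.013 to 0.38) was lost without any 1 control or Mbnl1 siRNA array.

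For Rpl3 and Rpl7 the difference after Cugbp1 siRNA came mainly from 1 array. Rpl3, which lies at the peptidyl transferase centre, read 12.22 on Cugbp1 siRNA replicate 1 and 12.59 to 12.65 on the other 8 arrays, a group difference of -0.13 that did not pass (adjusted p = 0.26) and that was -0.01 without that array. Rpl7 read 10.09 on the same array against 10.62 and 10.69 on the others of its group. Rpl5, which carries 5S rRNA and binds Mdm2, was chosen after its values were seen: it stood at 10.12, 10.32 and 10.29 in control cells and 9.69, 10.02 and 10.09 after Cugbp1 siRNA. All 3 arrays lay below control, and the difference of -0.31 just missed the threshold (adjusted p = 0.0501, 0.016 to 0.15 over the alternatives, -0.18 without Cugbp1 siRNA replicate 1). Rpl7a and Rpl24 also rose after Mbnl1 siRNA, by 0.17 and 0.18 (adjusted p = 0.032 and 0.041), and were likewise picked after their values were seen. The Rpl7a call (0.014 to 0.17) was lost without control replicate 2 or 3 or Mbnl1 siRNA replicate 1 or 3, and the Rpl24 call (0.0050 to 0.20) without any 1 control array, Cugbp1 siRNA replicate 2 or Mbnl1 siRNA replicate 1 or 3.

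In the small subunit, 2 of 14 genes rose after Cugbp1 siRNA and 4 after Mbnl1 siRNA, which became 3 lower, and 3 higher and 3 lower, with gene values centred on the tested genes. Rps9, which sits near the entrance of the mRNA channel and helps reading accuracy, stood at 9.46, 9.47 and 9.60 in control cells, 9.71, 9.71 and 9.76 after Cugbp1 siRNA and 9.68, 9.73 and 9.84 after Mbnl1 siRNA. It rose by 0.22 (SE 0.06, adjusted p = 0.011) and 0.24 (adjusted p = 0.0065), without overlap with control, and all 9 of its kept probe sets were higher in both. The call after Cugbp1 siRNA was lost under that centring (adjusted p = 0.063, in a range of 0.0037 to 0.063). Rps25, a protein needed by several viral internal ribosome entry sites, stood at 9.53, 9.46 and 9.44 in control cells, 9.55, 9.65 and 9.68 after Cugbp1 siRNA and 9.79, 9.65 and 9.76 after Mbnl1 siRNA. It rose by 0.15 (adjusted p = 0.045) and 0.26 (adjusted p = 0.0041), and the lowest Cugbp1 siRNA array lay only just above the highest control array. The call after Cugbp1 siRNA (0.021 to 0.23) was lost without control replicate 2 or 3, Cugbp1 siRNA replicate 2 or 3 or any 1 Mbnl1 siRNA array. Rps4x, the X-linked copy of an RNA-binding small subunit protein, rose by 0.21 after Mbnl1 siRNA (adjusted p = 0.0027), from 11.97, 11.95 and 11.98 to 12.22, 12.15 and 12.15. Its Cugbp1 siRNA arrays, at 12.07, 12.04 and 12.05, lay between the groups, and their difference of 0.09 from control did not pass (adjusted p = 0.11). Rps10 also rose after Mbnl1 siRNA, by 0.16 (adjusted p = 0.017), a call (0.0043 to 0.16) that was lost without control replicate 1 or 2, Cugbp1 siRNA replicate 2 or any 1 Mbnl1 siRNA array.

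None of the 3 stalk proteins, which recruit the elongation factors to the large subunit, was called by limma in any contrast, and 1 of them had an unadjusted p under 0.05 in 1 contrast, Rplp2 after Mbnl1 siRNA. With gene values centred on the tested genes, and with arrays centred on the kept probe sets, 1 was called lower after Cugbp1 siRNA. Rplp0, often used as a reference gene, stood at 12.86, 12.82 and 12.92 in control cells, 12.80, 12.88 and 12.87 after Cugbp1 siRNA and 12.84, 12.85 and 12.88 after Mbnl1 siRNA. The groups overlapped throughout. Rplp1 differed from control by -0.09 and -0.03, and Rplp2 by 0.10 and 0.19 (adjusted p = 0.056 for the latter).

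Several ribosomal proteins have a second, closely related gene, and a probe can take up RNA of both. Of 3 paralogs tested, Rps27l, a target of p53, stood at 10.62, 10.40 and 10.55 in control cells, 10.70, 10.85 and 10.72 after Cugbp1 siRNA and 10.70, 10.69 and 10.80 after Mbnl1 siRNA. It rose by 0.23 (adjusted p = 0.019) and 0.21 (adjusted p = 0.026), without overlap with control. These calls (0.0086 to 0.080 and 0.012 to 0.10) were lost without control replicate 2, the first also without Cugbp1 siRNA replicate 2, and the second also without control replicate 3 or Mbnl1 siRNA replicate 1 or 3. Rpl22l1, the paralog that Rpl22 represses, stood at 7.71, 7.91 and 7.76 in control cells, 7.94, 7.87 and 8.01 after Cugbp1 siRNA and 8.05, 8.02 and 8.06 after Mbnl1 siRNA. It rose after Mbnl1 siRNA by 0.25 (adjusted p = 0.0078), with all arrays above control, and its 0.14 after Cugbp1 siRNA did not pass (adjusted p = 0.075), while Rpl22 itself differed by 0.11 and 0.07 with no call. Without the filter on low values the Rpl22l1 call was lost (adjusted p = 0.11, in a range of 5.6e-04 to 0.11). Rpl7l1 differed by 0.07 and 0.10 and Rpl39 by 0.02 and 0.09, with no call. Rps4l, listed under an older symbol and so outside the rule, differed by -0.22 (adjusted p = 0.13) and fell by 0.34 after Mbnl1 siRNA (adjusted p = 0.027), a call that was lost without the filter, with at least 1 probe set per gene and without Mbnl1 siRNA replicate 3 (0.0099 to 0.099).

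The 25 members that were not tested were mostly ribosomal, 22 against 3 initiation factors. No probe set was kept for Rpl3l, Rpl9, Rpl10l, Rpl35a, Rpl39l and the pseudogene Eif5al3, and 1 or 2 for the other 19. When genes with 1 or 2 kept probe sets were fitted too, 2 of these 19 fell after Cugbp1 siRNA, Rps7 by 0.25 (adjusted p = 0.023) and Rps27 by 0.23 (adjusted p = 0.021). After Mbnl1 siRNA 3 fell, Rpl28 by 0.52 (adjusted p = 0.030), Rpl36 by 0.30 (adjusted p = 0.028) and Rps27 by 0.18 (adjusted p = 0.043). Their differences from control ranged from -0.57 to 0.15 and from -0.63 to 0.21, and each rests on 1 or 2 probe sets. In the same fit 29% and 33.1% of all genes were called, a larger share than of these 19.

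**Figure D3:**
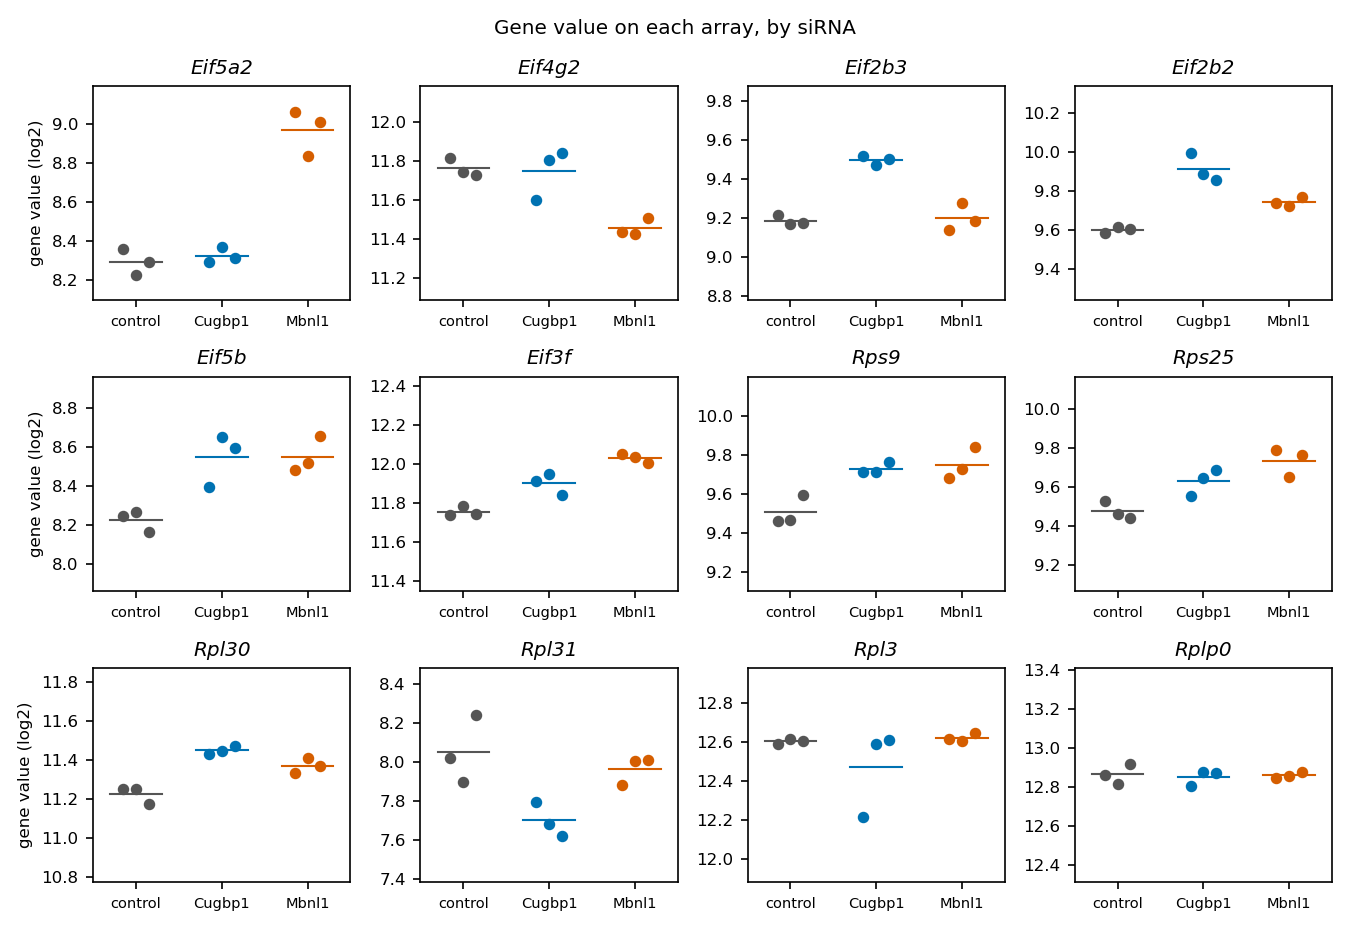
Log2 gene value on each of the 9 arrays for 12 members, with lines at the group means and the same vertical span of 1.1 in every panel. Eif5a2 is higher and Eif4g2 lower on all 3 Mbnl1 siRNA arrays, Eif2b3 is higher on all 3 Cugbp1 siRNA arrays, and the Rplp0 arrays overlap.

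Of 4 genes grouped by symbol with eIF1 and eIF1A, 2 rose after Cugbp1 siRNA, and 1 was lower and none higher with gene values centred on the tested genes. Eif1ad, a relative of eIF1A, stood at 9.48, 9.46 and 9.53 in control cells, 9.61, 9.68 and 9.62 after Cugbp1 siRNA and 9.43, 9.42 and 9.41 after Mbnl1 siRNA. It rose by 0.15 after Cugbp1 siRNA (adjusted p = 0.018), was at -0.07 after Mbnl1 siRNA (adjusted p = 0.20), and differed between the siRNAs by 0.21 (adjusted p = 0.0090), the 3 groups lying one above the other without overlap. The direct difference (0.0036 to 0.064) missed the threshold without Mbnl1 siRNA replicate 1, and the rise after Cugbp1 siRNA (0.0062 to 0.22) without control replicate 1. The probe sets listed as Eif1ay, now Eif1ax, rose by 0.12 after Cugbp1 siRNA (adjusted p = 0.048) and were named after their values were seen. That call (0.013 to 0.51) was lost whichever of the 9 arrays was left out.

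Of the eIF2 group, Eif2a, which can deliver the first tRNA without being part of eIF2, stood at 9.57, 9.35 and 9.50 in control cells, 9.69, 9.64 and 9.60 after Cugbp1 siRNA and 9.69, 9.69 and 9.77 after Mbnl1 siRNA. It rose by 0.17 (adjusted p = 0.039) and 0.24 (adjusted p = 0.0075), without overlap with control. The smaller change (0.012 to 0.27) was lost without control replicate 2 or 3, Cugbp1 siRNA replicate 1 or 2 or any 1 Mbnl1 siRNA array, and the larger held throughout. The 3 subunits of eIF2 itself did not pass: Eif2s1, the subunit that stress kinases phosphorylate, differed by 0.07 and 0.08, Eif2s2 by 0.14 and 0.15, and Eif2s3x by -0.04 and 0.02.

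In the direct test 2 of 5 eIF2B genes, Eif2b3 and Eif2b2, were called higher after Cugbp1 siRNA than after Mbnl1 siRNA. Of all genes 4.27% were called higher in that test. The Eif2b3 call held throughout, and the Eif2b2 call was lost in 15 of 20 alternatives. Under every scaling 2 or 3 of the 5 were called higher after Cugbp1 siRNA and none lower, against 0 or 1 after Mbnl1 siRNA. Over the same scalings, 1679 to 4398 of all 12646 genes were called higher after Cugbp1 siRNA. After Mbnl1 siRNA 2201 to 4232 were, and 5 genes are few to set against these numbers. Eif2b3, the gamma subunit of the catalytic part, stood at 9.21, 9.17 and 9.17 in control cells, 9.52, 9.47 and 9.50 after Cugbp1 siRNA and 9.14, 9.28 and 9.19 after Mbnl1 siRNA. It rose 1.24-fold after Cugbp1 siRNA, by 0.31 (95% interval 0.21 to 0.41, adjusted p = 0.0011), was at 0.01 after Mbnl1 siRNA (interval -0.09 to 0.12), and differed between the siRNAs by 0.30 (interval 0.20 to 0.40, adjusted p = 0.0034). All 3 Cugbp1 siRNA arrays lay above the other 6, and 16 of its 18 kept probe sets were higher after Cugbp1 siRNA against 9 after Mbnl1 siRNA. The 2 that were not, 4425295 and 4984926, are bright, with control means of 12.10 and 12.15. Each differed by -0.08 after Cugbp1 siRNA, with arrays that overlap. Both departed from the gene value by -0.39 (limma adjusted p = 0.023 and 0.017 over all probe sets tested for exon usage).

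Eif2b2, the beta subunit of the regulatory part, stood at 9.58, 9.62 and 9.61 in control cells, 9.99, 9.89 and 9.86 after Cugbp1 siRNA and 9.74, 9.72 and 9.77 after Mbnl1 siRNA. It rose by 0.31 (adjusted p = 0.0010) and by 0.14 (adjusted p = 0.030), and differed between the siRNAs by 0.17 (adjusted p = 0.044), the groups lying one above the other without overlap and all 11 kept probe sets being higher than control after either siRNA. The last difference lay near the threshold, and its adjusted p ranged from 0.022 to 0.18 over the alternatives, missing the threshold without any 1 array other than Cugbp1 siRNA replicate 3. The change after Mbnl1 siRNA (0.011 to 0.30) was lost without any 1 control or Mbnl1 siRNA array. Eif2b1, the alpha subunit, rose by 0.15 after Cugbp1 siRNA (adjusted p = 0.016), from 8.97, 9.02 and 8.94 to 9.14, 9.13 and 9.10, a call (0.0049 to 0.22) that was lost without control replicate 1 or 3. Eif2b4 differed by 0.09 and -0.05 and Eif2b5, the catalytic epsilon subunit, by -0.01 and -0.05, with no call. The median over the 5 subunits, 0.15 after Cugbp1 siRNA and 0.01 after Mbnl1 siRNA, stood beside 0.05 and 0.04 over all genes.

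Within eIF3, the largest initiation factor, 2 of 13 genes rose after Cugbp1 siRNA and 3 after Mbnl1 siRNA, counts that became 0 and 2 with gene values centred on the tested genes. Eif3f, a subunit known in muscle for binding mTOR and for its loss in atrophy, stood at 11.74, 11.78 and 11.74 in control cells, 11.91, 11.95 and 11.84 after Cugbp1 siRNA and 12.05, 12.03 and 12.005 after Mbnl1 siRNA. It rose by 0.14 (adjusted p = 0.024) and by 0.28, or 1.21-fold (adjusted p = 9.6e-04), the 3 groups lying one above the other, while the difference between the siRNAs, -0.13, did not pass (adjusted p = 0.090). The change after Cugbp1 siRNA (0.0071 to 0.30) was lost without control replicate 1 or 3, Cugbp1 siRNA replicate 1 or 2 or any 1 Mbnl1 siRNA array. Eif3g rose by 0.13 after Cugbp1 siRNA (adjusted p = 0.042), and Eif3a and Eif3e rose by 0.17 (adjusted p = 0.036) and 0.22 (adjusted p = 0.015) after Mbnl1 siRNA, all 3 named after their values were seen. The Eif3g call (0.0078 to 0.35) was lost without control replicate 1 or 3, Cugbp1 siRNA replicate 2 or 3 or Mbnl1 siRNA replicate 1 or 3. The Eif3a call (0.0049 to 0.13) was lost without control replicate 2 or 3 or Mbnl1 siRNA replicate 2 or 3, and the Eif3e call (0.0024 to 0.055) without control replicate 2 or Mbnl1 siRNA replicate 3. Of 21 kept probe sets of Eif3e, 19 were higher after Mbnl1 siRNA and 2 lower. Its bright probe set 4876546 (control mean 12.63) was lower by 0.14 after Cugbp1 siRNA and 0.11 after Mbnl1 siRNA, without overlap with control.

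Of 9 genes of eIF4E, eIF4G and eIF4A, 1 rose after Cugbp1 siRNA, and 3 rose and 2 fell after Mbnl1 siRNA, which became 1 lower, and 2 higher and 4 lower, with gene values centred on the tested genes. Eif4e, the protein that holds the cap, stood at 9.64, 9.48 and 9.58 in control cells, 9.68, 9.76 and 9.86 after Cugbp1 siRNA and 9.74, 9.78 and 9.91 after Mbnl1 siRNA. It rose by 0.20 (adjusted p = 0.030) and 0.25 (adjusted p = 0.012), with every siRNA array above every control array. The first call (0.0053 to 0.12) was lost without control replicate 2 or 3 or Cugbp1 siRNA replicate 2 or 3, and the second (0.0029 to 0.074) without Mbnl1 siRNA replicate 3. Its relative Eif4e2, which represses translation, rose by 0.17 after Mbnl1 siRNA (adjusted p = 0.017), and Eif4e3 fell by 0.18 (adjusted p = 0.035), from 7.70, 7.85 and 7.77 to 7.59, 7.48 and 7.70. The highest Eif4e3 array after Mbnl1 siRNA read the same as the lowest control array to the decimals given. The Eif4e2 call (0.0036 to 0.084) was lost without Mbnl1 siRNA replicate 1 or 3, and the Eif4e3 call (0.0063 to 0.50) without control replicate 2 or 3, Cugbp1 siRNA replicate 1 or 2 or Mbnl1 siRNA replicate 2.

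Eif4g2 (also DAP5), a scaffold like eIF4G that lacks the cap-binding site and serves cap-independent starts, was the initiation factor that fell most. It stood at 11.81, 11.74 and 11.73 in control cells, 11.60, 11.80 and 11.84 after Cugbp1 siRNA and 11.44, 11.43 and 11.51 after Mbnl1 siRNA. It fell to 0.81-fold after Mbnl1 siRNA, a change of -0.30 (95% interval -0.45 to -0.16, adjusted p = 0.0041), was at -0.01 after Cugbp1 siRNA (interval -0.15 to 0.13), and differed between the siRNAs by 0.29 (adjusted p = 0.018). All 3 Mbnl1 siRNA arrays lay below the other 6, and 32 of its 36 kept probe sets were lower than control. The difference between the siRNAs missed the threshold without Cugbp1 siRNA replicate 2 or Mbnl1 siRNA replicate 1 or 2, with an adjusted p of 0.061 to 0.069 (0.0021 to 0.086 over the alternatives). Eif4g1 and Eif4g3, the cap-dependent scaffolds, differed by 0.03 and -0.07 and by 0.03 and 0.05, with no call.

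The helicase gene Eif4a2 stood at 8.92, 8.61 and 8.74 in control cells, 8.81, 8.87 and 8.99 after Cugbp1 siRNA and 9.09, 9.10 and 9.16 after Mbnl1 siRNA. It rose 1.28-fold after Mbnl1 siRNA, by 0.36 (adjusted p = 0.0043), with every array above the other 6, while 0.13 after Cugbp1 siRNA (adjusted p = 0.18) and -0.23 between the siRNAs (adjusted p = 0.094) did not pass. Its close relative Eif4a1 differed by -0.01 and 0.00, and Eif4a3, a core of the exon junction complex, by -0.01 and -0.05. Among the proteins that hold eIF4E back, Eif4ebp3 rose by 0.19 after Mbnl1 siRNA (adjusted p = 0.038, 0.015 to 0.32 over the alternatives, lost without any 1 control array, Cugbp1 siRNA replicate 2 or Mbnl1 siRNA replicate 1 or 2), Eif4ebp1 differed by -0.02 and 0.02, and Eif4ebp2 by 0.08 and -0.10, with no call for the last pair. The Eif4ebp3 value rests on 4 kept probe sets, of which 3 were higher after Mbnl1 siRNA and 1 lower. The lower one, 5120016 (control mean 10.06), fell by 0.32 after either siRNA without overlap with control. It departed from the gene value by -0.47 and -0.51 (limma adjusted p = 0.011 and 0.0048 over all probe sets tested for exon usage). Eif4b, which aids the helicase, rose by 0.14 after Mbnl1 siRNA (adjusted p = 0.030) and was named after its value was seen. That call (0.0092 to 0.23) was lost without any 1 control array or Mbnl1 siRNA replicate 1 or 2.

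Eif5a2 gave the largest change of any member. It encodes the second form of eIF5A, the factor with a hypusine residue that helps ribosomes past stalling sequences. It stood at 8.36, 8.23 and 8.29 in control cells, 8.29, 8.37 and 8.31 after Cugbp1 siRNA and 9.06, 8.84 and 9.01 after Mbnl1 siRNA. It rose 1.60-fold after Mbnl1 siRNA, by 0.68 (95% interval 0.54 to 0.82, adjusted p = 5.45e-05), was at 0.03 after Cugbp1 siRNA (interval -0.11 to 0.17, adjusted p = 0.71), and was lower after Cugbp1 than after Mbnl1 siRNA, with a difference of -0.65 (interval -0.79 to -0.51, adjusted p = 2.33e-04). All 3 Mbnl1 siRNA arrays lay far above the other 6, and both calls held in every setting tried. Eif5a, the main form, differed by 0.20 (adjusted p = 0.060) and 0.11.

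The probe sets of Eif5a2 did not move alike. Of 6 kept, 4 were higher after Mbnl1 siRNA by 0.51 to 1.47 and 1 was at 0.09. Probe set 5281751 went from 8.62, 8.81 and 8.69 in control cells to 10.25, 10.15 and 10.14. Probe set 5313236 went the other way, from 8.65, 8.13 and 8.79 to 8.28, 7.20 and 7.84, with arrays that overlap, and it departed from the gene value by -1.43 (adjusted p = 0.005 over all probe sets tested for exon usage). The positions of the probe sets in the transcript were not used here.

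**Figure D4:**
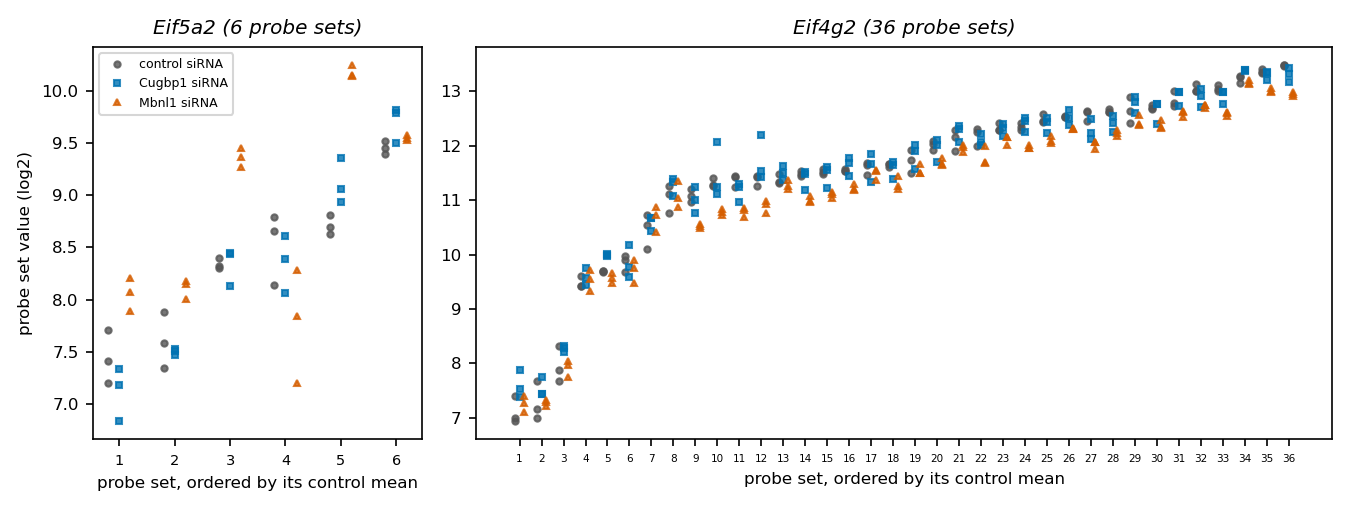
Log2 value of each kept probe set of Eif5a2 (6) and Eif4g2 (36) on the 3 arrays of each group, ordered by their mean in control cells. In Eif5a2, 4 probe sets are clearly higher on the Mbnl1 siRNA arrays and 1 is lower on average; in Eif4g2, 32 of 36 are lower.

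Eif5b, the GTPase that joins the subunits, was the initiation factor with the largest rise after Cugbp1 siRNA. It stood at 8.25, 8.27 and 8.16 in control cells, 8.39, 8.65 and 8.60 after Cugbp1 siRNA and 8.48, 8.52 and 8.66 after Mbnl1 siRNA. It rose 1.25-fold after either siRNA, by 0.32 (SE 0.07, adjusted p = 0.0073) and 0.33 (adjusted p = 0.0057), without overlap with control, and 25 and 26 of its 27 kept probe sets were higher. Eif6, which keeps the subunits apart, differed by -0.06 and -0.03, with no call.

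Of the Argonaute genes, which carry small RNAs in silencing, 1 was called. Eif2c2, the Ago2 gene, stood at 10.90, 10.90 and 10.83 in control cells, 10.68, 10.82 and 10.84 after Cugbp1 siRNA and 10.67, 10.67 and 10.71 after Mbnl1 siRNA, and fell by 0.19 after Mbnl1 siRNA (adjusted p = 0.013, 0.0012 to 0.062 over the alternatives, lost without control replicate 1 or 2 or Mbnl1 siRNA replicate 1). The other 3 were not called, but with gene values centred on the tested genes 3 of the 4 were called lower after Cugbp1 siRNA, against 2839 of all 12646 genes. Without the 4 genes, 10 initiation factors of 46 rose after Cugbp1 siRNA, and 12 rose and 2 fell after Mbnl1 siRNA.

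Genes that act beside these factors were counted from lists by function, with the split under gene values centred on the tested genes given beside each count. Their shares called are to be read against 38.7% of all genes after Cugbp1 siRNA and 41.5% after Mbnl1 siRNA. The centred counts are to be read against 35.7% (1679 higher and 2839 lower of 12646) and 42.7% (2201 higher and 3200 lower). Among 6 kinases and phosphatase subunits that act on eIF2, 2 rose after Cugbp1 siRNA, Eif2ak1 by 0.33 and Eif2ak4 by 0.30, and 4 rose after Mbnl1 siRNA, with Eif2ak3 (PERK) at 0.42 (adjusted p = 7.81e-04), and the counts, 33.3% and 66.7%, were the same under that centring. Eif2ak3 differed between the siRNAs by -0.33 (adjusted p = 0.0092), a call that was lost without the filter and without Mbnl1 siRNA replicate 1 (0.0031 to 0.052). Of 15 elongation and release factors, 4 rose and 1 fell after Cugbp1 siRNA, and 2 rose and 1 fell after Mbnl1 siRNA (33.3% and 20%; centred, 1 higher and 3 lower, and 2 higher and 3 lower). Pelo, a rescue factor for stalled ribosomes, fell by 0.31 and 0.30, and Eef2k, the kinase that inhibits elongation factor 2, rose by 0.25 and 0.28. Without the filter Pelo was at -0.04 and -0.09 and was not called, and Eef2k after Cugbp1 siRNA was not called without control replicate 3. Of 9 poly(A)-binding proteins and partners, 5 rose and 1 fell after Cugbp1 siRNA and 4 rose after Mbnl1 siRNA (66.7% and 44.4%; centred, 2 higher and 1 lower, and 3 higher). Mcts1, counted in this list although it acts in reinitiation, rose by 0.50 and 0.52. Pabpc4 fell by 0.35 after Cugbp1 siRNA and differed between the siRNAs by -0.33 (adjusted p = 0.0011).

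Of 23 genes of the mTORC1 pathway, which controls cap binding, 7 rose and 1 fell after each siRNA (34.8% in both, below the share of all genes; centred, 4 higher and 2 lower, and 6 higher and 4 lower). Pdcd4, an inhibitor of eIF4A, rose by 0.54 and 0.98 and differed between the siRNAs by -0.45 (adjusted p = 0.0051), a difference not called without Cugbp1 siRNA replicate 1 (-0.42) or 3 (-0.38). Mtor, the kinase of the complex, rose by 0.20 and 0.19, and the mTORC1 inhibitors Ddit4 and Deptor rose by 0.54 and 0.46 and by 0.50 and 0.76. Of 14 genes of RNA polymerase I and its factors, which make ribosomal RNA, 9 rose after Cugbp1 siRNA, and 6 rose and 1 fell after Mbnl1 siRNA (64.3% and 50%; centred, 4 higher, and 4 higher and 2 lower), with Taf1a at 0.48 and 0.37 and Polr1e at 0.46 and 0.42. Of 61 ribosome biogenesis genes, 32 rose and 1 fell after Cugbp1 siRNA (54.1%, median 0.15, against 38.7% and 0.05 over all genes), and 14 rose after Mbnl1 siRNA (23.0%, median 0.07, against 41.5% and 0.04). Centred, these splits were 6 higher and 3 lower, and 6 higher and 7 lower. Rrp1b rose by 0.34 after Cugbp1 siRNA, and Gnl3l fell by 0.41 and differed between the siRNAs by -0.53 (adjusted p = 0.0010). Of the ribosomal proteins whose symbols the rule does not match, Rpsa was tested and differed by -0.13 and -0.02, with no call.

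Exon usage was read as the value of a probe set minus that of its gene, over 1188 kept probe sets of 82 members. After Cugbp1 siRNA 27 departed from their gene (2.27%, against 3.75% of all 158710 probe sets tested), in 20 genes, and after Mbnl1 siRNA 47 (3.96%, against 6.98%), in 29 genes. These counts depended strongly on the setting: without the filter on low values they were 0 and 10, and by diffSplice, limma's own test of exon usage, 74 and 93. The shares of all probe sets called in those settings are not given here, so the counts cannot be set against all probe sets. Between the siRNAs 1 did (0.0842%, against 0.0277%), probe set 5207051 of Eif5a2, by 0.80 (adjusted p = 0.021), and 0 without the filter. The probe set itself differed by 0.15 with overlapping arrays, the gene value by -0.65. The shares of the members lay below those of all probe sets in both contrasts with control.

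The probe sets that departed most include 1 each in Rps15 and Rps3, small subunit proteins near the decoding site and the mRNA entrance. In Rps15, probe set 5531751 read 10.60, 10.36 and 11.02 in control cells, 9.78, 9.60 and 9.48 after Cugbp1 siRNA and 9.46, 9.15 and 9.69 after Mbnl1 siRNA. Its departure was -0.90 (adjusted p = 0.013) and -1.10 (adjusted p = 0.004), and all siRNA arrays lay below control. In Rps3, probe set 4423540 read 9.38, 9.22 and 9.91 in control cells, 8.83, 8.18 and 8.06 after Cugbp1 siRNA and 8.82, 8.07 and 8.41 after Mbnl1 siRNA, with departures of -1.13 (adjusted p = 0.034) and -1.07 (adjusted p = 0.030). Among the initiation factors, probe set 5489692 of Eif4enif1, the eIF4E transporter, departed by -0.82 (adjusted p = 0.044) and -1.23 (adjusted p = 0.006). Probe set 4662748 of Eif1ad departed by -0.82 (adjusted p = 0.011) and -0.65 (adjusted p = 0.018). Probe set 5184602 of Eif3e departed by 0.83 and 0.88, and probe set 4464661 of Eif5 by 1.08 after Mbnl1 siRNA. Their control means, 6.84 and 6.41, lie below the filter, so both passed it only through the siRNA groups, and their departures are given as a description. A departure of 1 probe set shows unequal change within the gene on these arrays, and was not tested by another method.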

How the data were processed

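The deposited values are linear probe set intensities of mouse exon arrays that the authors deposited; the submitters' processing notes name RMA, Affymetrix Expression Console and build mm9, and tool versions were not given in the sources used here. They were taken to log2. Probe sets listed with 1 gene symbol (316997) were used; 6571 have several, and 871987 are not listed and stay unnamed. Those with a mean at or above the 75th percentile (log2 7.00) were kept, and a gene with at least 3 was summarised by median polish. A limma 3.58.1 model (R 4.3.3) over the 3 groups gave log2 differences, with Benjamini-Hochberg adjustment over 12646 genes and a threshold of 0.05; exon usage, as probe set minus gene value, was fitted with a trend over the 158710 probe sets of genes with at least 4 kept. The procedure was tested on simulated data. An array gives no read depth, and 3 arrays a group limit the precision.

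Members and lists were chosen with earlier results of these data known. Lists covered elongation and release, eIF2 kinases and phosphatases, poly(A)-binding proteins, mTORC1, ribosome biogenesis, RNA polymerase I, other ribosomal proteins and cell type markers. Up to 5 called members per direction, contrast and family were named, with stalk proteins, paralogs, eIF2, eIF2B, eIF4, 4E-BP, eIF5A and eIF6 genes whatever they showed, up to 4 genes per list and contrast, and up to 5 probe sets per contrast; 9 more members were named after their values were seen. Alternatives were quantile normalisation, centring on the array median, no filter, the 90th percentile, 1 probe set per gene, the mean of probe sets, only the compared groups, a trend, a replicate block, diffSplice and leaving out each array. Centring on the tested genes, centring on the kept probe sets and omitting the Argonaute genes were chosen after seeing the data. Correlations of deviations between same-numbered arrays ran from -0.10 to 0.12 over 9 pairs, with 1 over 0.1, so the numbers were not treated as pairs. Figures were drawn with matplotlib 3.10.9.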

Additional observations from a re-analysis of the deposited data

Results flagged for a closer look

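For 6 genes the responses to the siRNAs differed in the direct test between the Cugbp1 siRNA and Mbnl1 siRNA arrays (limma, adjusted over all genes). They are 1 of 42 ribosomal genes (2.38%) and 5 of 50 initiation factors (10%), against 9.34% of all genes, so members did not differ more often than genes at large. Eif5a2 was lower after Cugbp1 siRNA, with a difference of -0.65 (adjusted p = 2.33e-04), and Rpl27a likewise, with -0.21 (adjusted p = 0.016). Eif2b3 was higher after Cugbp1 siRNA by 0.30 (adjusted p = 0.0034), Eif4g2 by 0.29 (adjusted p = 0.018), Eif1ad by 0.21 (adjusted p = 0.0090) and Eif2b2 by 0.17 (adjusted p = 0.044). The departure of probe set 5207051 from the Eif5a2 gene value differed by 0.80 (adjusted p = 0.021 over all probe sets tested). The probe set itself differed by 0.15, with arrays that overlap, beside -0.65 for the gene value, and no member probe set was called between the siRNAs without the filter, at the 90th percentile or with only those groups. Over the alternatives the gene calls for Eif5a2 and Eif2b3 held throughout, while each of the other 4 genes lost the call in at least 1 setting. Of 20 alternatives, the call was lost in 15 for Eif2b2, 4 for Eif4g2, 2 for Rpl27a and 1 for Eif1ad.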

How the results depend on the processing

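Of the 49 called changes of members, 15 held in every alternative in which they were tested and 34 missed the threshold in at least 1, and none turned its sign; of 116 changes of the named members that were not called, 45 turned sign in at least 1. Those that held are Eif5a2, Eif4g2, Eif4a2, Eif2a, Eif3f, Rps9, Rps25 and Rps4x after Mbnl1 siRNA, Eif2b2, Eif2b3 and Rpl30 after Cugbp1 siRNA, Eif5b after both, and Eif2b3 and Eif5a2 between the siRNAs. Ribosomal genes called after Cugbp1 siRNA, 6 as reported, numbered 11 with gene values centred on the tested genes and 10 with a trend, settings in which 35.7% and 39.8% of all genes were called. Initiation factors called after Cugbp1 siRNA were 10 as reported. They numbered 6 with arrays centred on the kept probe sets, with at least 1 probe set per gene and with only the compared groups. In these settings 35.3%, 29% and 31.2% of all genes were called, against 38.7% as reported. Those after Mbnl1 siRNA, 15 as reported, numbered 23 with the mean of probe sets, where 50.1% of all genes were called, against 41.5%. Between the siRNAs, ribosomal calls were 3 at the 90th percentile, 2 with only those groups and 2 with a trend, against 1, and initiation factor calls 3 without the filter, against 5. The shares of all genes were 18.4% at the 90th percentile, 6.79% with only those groups, 11.1% with a trend and 3.19% without the filter, against 9.34%.

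Exon usage calls depended most on the setting. After Cugbp1 siRNA there were 27 as reported, 0 without the filter, 17 at the 90th percentile, 42 with the mean of probe sets, 6 with only the compared groups and 74 by diffSplice. After Mbnl1 siRNA there were 47, 10 without the filter and 93 by diffSplice. Between the siRNAs there was 1, and 0 without the filter, at the 90th percentile or with only those groups, and 6 by diffSplice. For these alternatives the shares of all probe sets are not given, so the counts show only that the calls depend on the setting. The ribosomal minus initiation factor difference became -0.082 for Cugbp1 siRNA against control, -0.044 for Mbnl1 siRNA against control and -0.038 for Cugbp1 against Mbnl1 siRNA with at least 1 probe set per gene, and the last was -0.039 without the filter. The cause of these moves was not tested.

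Leaving out 1 array at a time gave 4 to 7 ribosomal and 4 to 10 initiation factor calls after Cugbp1 siRNA, 6 to 15 and 8 to 17 after Mbnl1 siRNA, and 0 to 2 and 2 to 7 between the siRNAs. The shares of all genes called without each array are not given here, so these counts are not read as results about the members. The lowest initiation factor counts came without control replicate 3 (4, after Cugbp1 siRNA), control replicate 2 (8, after Mbnl1 siRNA) and Mbnl1 siRNA replicate 1 (2, between the siRNAs), and the lowest ribosomal count after Mbnl1 siRNA, 6, without Mbnl1 siRNA replicate 1 or 3. Exon usage calls ran from 5 (without Cugbp1 siRNA replicate 3) to 27, from 12 (without Mbnl1 siRNA replicate 3) to 64, and from 0 to 1. The ribosomal minus initiation factor difference ran from -0.07 to -0.04, from -0.02 to 0.02 and from -0.07 to -0.05. Without Cugbp1 siRNA replicate 1, 7 ribosomal and 10 initiation factor genes were called after Cugbp1 siRNA. With the replicate number as a block, calls were 5 and 8 after Cugbp1 siRNA, 9 and 13 after Mbnl1 siRNA and 1 and 4 between the siRNAs. Of all genes 35.9%, 39.4% and 6.92% were then called. Exon usage calls with that block were 17, 40 and 1. In 4 of the 9 pairs the best correlation was with the same number.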
